A study of Mus musculus with 7 samples.

Results

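The 32 genes described here are a list of megakaryocyte and platelet genes, taken by symbol from the 49671 genes of a count table of mouse femur RNA. Every one of the 32 was in the table, passed the filter on low counts and was tested. The list was drawn up by cell type and not by measured values, with earlier results of the same libraries known. The 4 injured samples were femurs of wild-type mice taken 3 days after a controlled cortical impact, which causes a traumatic brain injury (TBI), and the 3 control samples were femurs of uninjured wild-type mice. The sources used here give neither strain nor age, and no sham operation is named for the controls, so the effects of surgery and of the impact cannot be told apart. The labels number the replicates without saying that each is a separate animal, so each p-value reflects only the spread among these samples, which may be technical.

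The whole femur was crushed in Trizol, so a library can hold RNA of bone, cartilage, marrow and any muscle left on the bone. In such bulk samples, fewer cells of a type and less RNA per cell cannot be told apart. The femur label was checked on 14 bone and cartilage genes, and all 14 had counts, with Col1a1 and Col1a2 the most abundant of them. Libraries held 15461528 to 21783534 counts. The smallest count of any of the 32 genes in any library was 115 (F2rl3) and the largest was 19353 (Ppbp), so none was near the limit of detection. A count of 0 would have allowed a level of up to 0.138 to 0.194 CPM, depending on the library, a bound that covers counting error only. CPM are counts per unit of library size, where the sizes were adjusted by TMM, a scaling that takes the bulk of the genes as unchanged.

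Megakaryocytes are the giant, polyploid cells of the marrow that shed platelets into its blood vessels. They fill platelets with granules of chemokines, adhesion proteins and clotting factors, and load their surface with the receptors that bind collagen, von Willebrand factor, fibrinogen and thrombin. The transcription factors GATA1 and FLI1 act together at many of their promoters, and platelets, which have no nucleus, carry over megakaryocyte mRNA.

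The promoters of 5 lineage genes are shown because both factors are known to act on genes of this kind. Their part in the levels reported here was not tested. Each window runs from 250 bases before to 50 bases after the gene's start, on the gene's own strand, 5′ to 3′, from RefSeq on GRCm38.p6. Capitals mark the GATA core GATAA or its reverse complement TTATC, and the ETS core GGAAG, the core that FLI1 and its relatives bind, or its reverse complement CTTCC. No 2 matches overlapped in these windows.
Pf4: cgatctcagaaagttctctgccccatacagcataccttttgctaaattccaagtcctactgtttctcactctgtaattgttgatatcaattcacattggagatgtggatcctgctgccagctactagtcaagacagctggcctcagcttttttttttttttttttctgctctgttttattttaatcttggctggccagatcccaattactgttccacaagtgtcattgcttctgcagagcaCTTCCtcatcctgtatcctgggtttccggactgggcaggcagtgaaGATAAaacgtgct
Itga2b: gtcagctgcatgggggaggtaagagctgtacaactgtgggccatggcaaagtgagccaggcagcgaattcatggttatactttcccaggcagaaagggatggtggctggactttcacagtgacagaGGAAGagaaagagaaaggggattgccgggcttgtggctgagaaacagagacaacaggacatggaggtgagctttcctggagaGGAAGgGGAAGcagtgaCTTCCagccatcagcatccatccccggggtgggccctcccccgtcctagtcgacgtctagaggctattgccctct
Gp9: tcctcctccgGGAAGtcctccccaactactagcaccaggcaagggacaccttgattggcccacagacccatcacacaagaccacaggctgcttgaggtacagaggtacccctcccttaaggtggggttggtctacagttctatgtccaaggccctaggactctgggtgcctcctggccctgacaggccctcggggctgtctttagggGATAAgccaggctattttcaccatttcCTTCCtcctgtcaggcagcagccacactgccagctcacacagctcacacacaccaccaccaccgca
Gp1ba: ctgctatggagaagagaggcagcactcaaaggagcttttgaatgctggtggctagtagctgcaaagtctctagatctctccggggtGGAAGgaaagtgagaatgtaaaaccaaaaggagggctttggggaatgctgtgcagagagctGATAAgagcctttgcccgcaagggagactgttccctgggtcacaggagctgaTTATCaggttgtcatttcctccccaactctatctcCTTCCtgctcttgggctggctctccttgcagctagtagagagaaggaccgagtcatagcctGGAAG
Gp6: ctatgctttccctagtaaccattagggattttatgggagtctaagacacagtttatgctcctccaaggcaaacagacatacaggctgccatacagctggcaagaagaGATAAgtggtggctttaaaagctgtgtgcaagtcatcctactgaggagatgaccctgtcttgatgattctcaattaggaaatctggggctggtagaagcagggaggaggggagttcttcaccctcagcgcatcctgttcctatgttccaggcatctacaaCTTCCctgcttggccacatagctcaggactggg
The Pf4 window (chr5:90772185-90772484, plus strand) held 1 GATA core and 1 ETS core. The Gp9 window (chr6:87777820-87778119, plus strand) held 1 and 2, and the Gp1ba window (chr11:70638872-70639171, plus strand) held 2 and 3. The Gp6 window (chr7:4397695-4397994, minus strand) held 1 of each. The Itga2b window (chr11:102469834-102470133, minus strand) held 4 ETS cores and no GATA core. The table had promoters for 28 of the 32 genes, all but Vwf, Rab27b, Gng11 and Fli1. With the first listed promoter of each gene, 12 of the 28 (42.9%) held a GATA core, against 25.8% of the 27025 genes in the table. An ETS core stood in 23 of the 28 (82.1%), against 71.1% of all genes, and both stood in 9 (32.1%), against 17.4%. These shares describe short letter matches and are no measure of binding.

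As a group, the 32 mRNAs were higher by estimate in the femurs of injured mice, but no gene passed the test. For the median gene, single libraries within a group lay further apart than the fitted difference between the groups. Of the 32 genes, 30 had a higher estimate after TBI, against 54.4% of all 17144 genes tested. The median log2 fold change of the 32 was 0.34, which is 1.26-fold, against 0.03 for the table as a whole. An estimate of 0.3 or more was found for 18 of the 32, where 18.4% of all genes had one. The 32 genes were measured in the same libraries and varied together. Counts of them, here and below, are therefore a description and not 32 separate observations. With edgeR's quasi-likelihood F-test 0 of the 32 passed an adjusted p of 0.05, where 0% of all genes did, and 0 had an unadjusted p under 0.05, where 7.34% of all genes had one in either direction and 2.37% with a higher estimate. DESeq2 and limma-voom also called 0 of the 32, and DESeq2 called 0.736% of all the genes to which it gave an adjusted p. Adjusted p-values ran from 0.750 (Vwf and P2ry12) to 0.931 (Rasgrp2) in edgeR's test. None of the 32 estimates exceeded 1.5-fold, a size that 6.93% of all genes exceeded in that direction.

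The same libraries were high for nearly every gene of the list. TBI 1, TBI 2 and control 1 were the 3 highest libraries for 30 of the 32 genes. The highest library was TBI 2 for 16 genes, TBI 1 for 14 and control 1 for 2, and the lowest was control 3 for 15, control 2 for 11, TBI 3 for 4 and TBI 4 for 2. Control 1 lay above TBI 3 and TBI 4 for all 32 genes, so none of the 32 had groups that did not overlap, while 2.66% of all genes had every TBI library above every control and 5.38% had every one below.

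Set against each gene's own mean over the 7 libraries, the list's median level was 0.50, 0.47, −0.22 and −0.15 on the log2 scale in TBI 1 to 4, and 0.36, −0.46 and −0.50 in controls 1 to 3. TBI 3 and TBI 4 therefore stood between control 1 and the other 2 controls. Together the 32 genes took 0.578%, 0.587%, 0.298% and 0.293% of all counts in TBI 1 to 4, and 0.520%, 0.295% and 0.270% in controls 1 to 3. The median gene differed 1.77-fold between its highest and lowest TBI library and 1.90-fold between its highest and lowest control. For all 32 genes the span among controls was larger than the fitted difference between the groups. This sets a span of single libraries against a difference of averages, which is usually smaller. The share of all genes with such a span was not counted, so whether it is a trait of this list is not known.

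**Figure D1:**
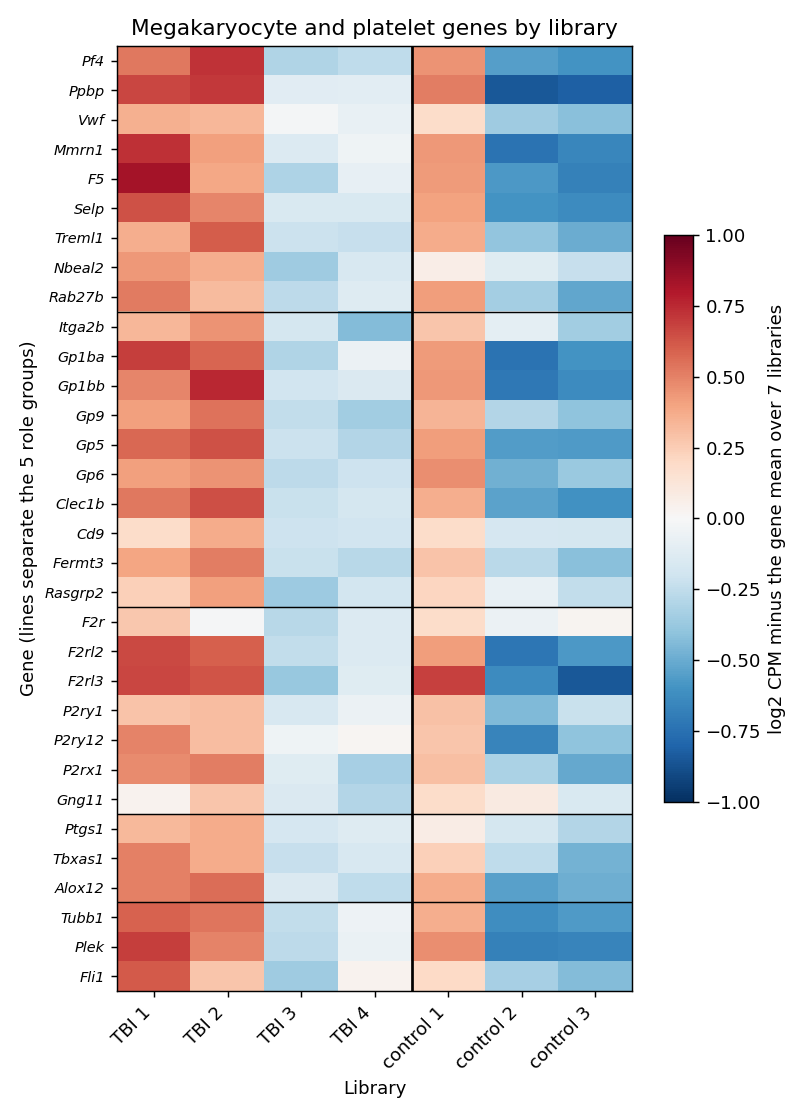
Each row is 1 of the 32 genes, ordered by role, and each column is a library, with the 4 TBI libraries left of the line and the 3 controls right of it; colour gives log2 CPM minus the gene's mean over the 7 libraries. TBI 1, TBI 2 and control 1 are red in nearly every row, and TBI 3, TBI 4, control 2 and control 3 are mostly blue.

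Leaving out a library moved the list's median by more than 1.5 times in 4 cases. Without control 1 the median log2 fold change was 0.61, and 31 of the 32 estimates were higher after TBI. In that setting 22 of the 32 genes had every TBI library above both remaining controls, where 8.16% of all genes did. An unadjusted p under 0.05 was then reached by 19 of the 32, where 7.02% of all genes reached it in either direction, and none passed after adjustment (smallest adjusted p = 0.490 in edgeR). In each edgeR fit without any other single library, 0 of the 32 reached an unadjusted p under 0.05. Of all genes, 592 to 1714 did in those fits, of 16881 to 17600 tested. Leaving out control 3 gave a median of 0.19, and leaving out TBI 1 or TBI 2 gave 0.21 in each case. Without control 2 it was 0.23, and 0 of the 32 genes had every TBI library above the remaining controls (4.21% of all genes did), nor did any without control 3 (5.75% of all genes did).

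The 2 chemokines of the platelet alpha granule were the most abundant mRNAs of the list per kilobase. Ppbp, whose product is cut to neutrophil-attracting peptides, averaged 508 CPM per kilobase of its longest coding transcript over the 7 libraries, and Pf4, which encodes the heparin-binding platelet factor 4, averaged 349 on the same scale. They are neighbours on GRCm38 chromosome 5, with Ppbp at 90768518 to 90770063 and Pf4 at 90772435 to 90773383, both protein-coding genes on the plus strand. Ppbp measured 805, 824, 467 and 470.3 CPM in TBI 1 to 4, against 720.0, 280.4 and 287 CPM in controls 1 to 3. All 4 TBI libraries lay above controls 2 and 3, and control 1 lay within the TBI range. Its log2 fold change of 0.58 ± 0.39 (SE; adjusted p = 0.763, edgeR) was the highest of the 32, and it was 1.18 without control 1. Pf4 measured 278, 318, 156 and 161 CPM in TBI 1 to 4, against 263, 132 and 127 CPM in controls 1 to 3, with a log2 fold change of 0.39 ± 0.35. The same libraries were high for both genes. Within a library, Ppbp was 2.90, 2.59, 2.99 and 2.91 times Pf4 in CPM in TBI 1 to 4, and 2.73, 2.13 and 2.25 times in controls 1 to 3, so this ratio varied less than either gene.

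The large adhesive cargo of the granules had the same libraries high, with a narrower spread for Vwf than for Mmrn1. Vwf, the multimeric protein that tethers platelets to damaged vessels and is also made by endothelium, measured 283, 278, 218 and 209.6 CPM in TBI 1 to 4, against 251, 172 and 166 CPM in controls 1 to 3. Its log2 fold change was 0.33 ± 0.19 (SE), with the smallest unadjusted p of the list (0.123, edgeR). Its highest library was 1.71 times its lowest, against 2.77 times for Mmrn1. Mmrn1, a multimeric carrier of factor V, measured 91.6, 73.4, 50.2 and 53.5 CPM in TBI 1 to 4, against 74.5, 33.1 and 35.2 CPM in controls 1 to 3 (log2 fold change 0.50 ± 0.32). Every TBI library was above controls 2 and 3 for both. F5, which encodes factor V itself, ranged from 66.9 to 147 CPM after TBI and from 51.9 to 111 CPM in controls. The 8 genes of a liver list served as a check on liver RNA. The list holds no blood-cell genes, so it cannot speak to RNA of circulating blood cells or platelets. Ttr, Fgb and Fga among the 8 had 0 counts in all 7 libraries. The other 5 brought the list's summed level to 2.16 to 11.6 CPM after TBI and 8.76 to 15.95 CPM in controls, with Serpina1a and Apoa2 the most abundant.

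Genes for granule membranes and release were also without separated groups. Selp encodes P-selectin, which moves from the granule to the platelet surface and catches leukocytes. It measured 46.1, 41.5, 26.7 and 26.6 CPM in TBI 1 to 4, against 39.1, 19.5 and 19.1 CPM in controls 1 to 3. TBI 3 and TBI 4 were nearly equal, between control 1 and the other 2 controls. Treml1, a receptor stored in the same granules, measured 93.2, 110.1, 62.6 and 61.8 CPM in TBI 1 to 4, against 93.8, 55.2 and 51.2 CPM in controls 1 to 3. Nbeal2, needed to form alpha granules, averaged 109.9 ± 28.8 CPM after TBI (SD, n = 4) and 95.8 ± 10.1 CPM in controls (SD, n = 3). Rab27b, a small GTPase of dense granules, averaged 71.0 ± 17.9 CPM after TBI and 60.3 ± 22.2 CPM in controls. The 9 granule genes together had a median log2 fold change of 0.39, all 9 higher.

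**Figure D2:**
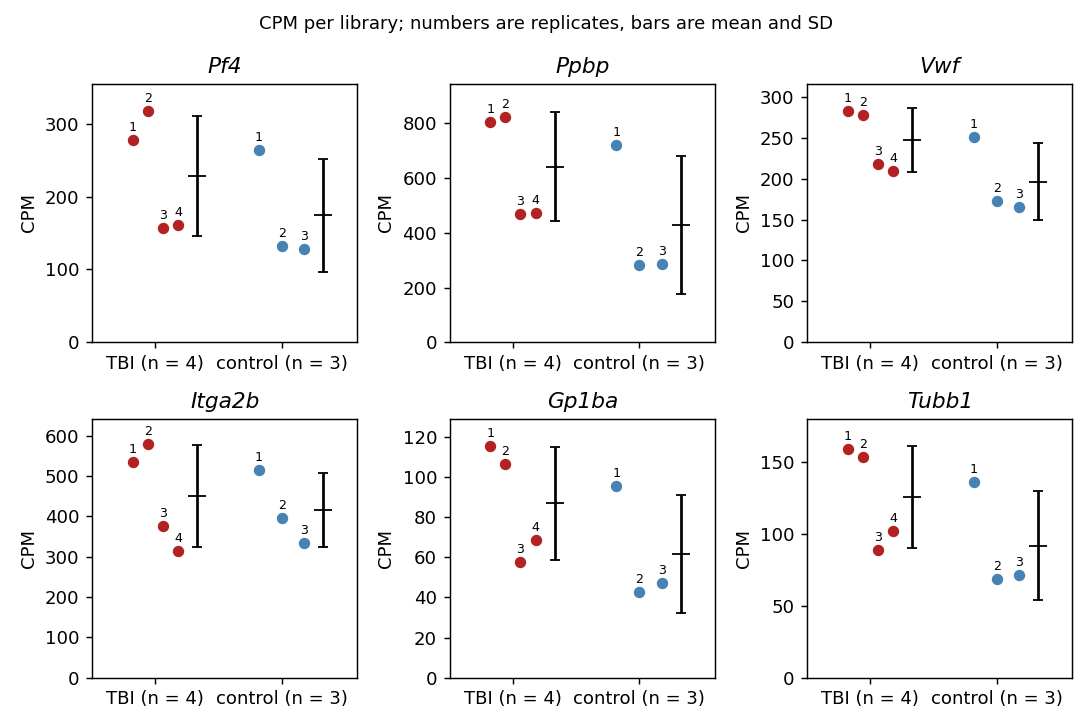
CPM (y axes, from 0) of 6 genes in each library, TBI left and control right, with the replicate number above each point and the group mean and SD as the bar beside it (n = 4 and n = 3). In all 6 panels control 1 lies among the TBI points, and for Pf4, Ppbp, Vwf, Gp1ba and Tubb1 controls 2 and 3 are the lowest 2 libraries.

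Itga2b, the alpha chain of the fibrinogen receptor and an early marker of the lineage, measured 534, 580.2, 376 and 314 CPM in TBI 1 to 4, against 514, 396 and 333 CPM in controls 1 to 3. TBI 4 was the lowest of the 7. Its log2 fold change was 0.12 ± 0.25 (SE), and it was −0.03 without TBI 2 and −0.01 without control 3. Ppbp was 1.51, 1.42, 1.24 and 1.5 times Itga2b in CPM in TBI 1 to 4, and 1.40, 0.708 and 0.860 times in controls 1 to 3. Itgb3, the beta chain that pairs with Itga2b and is no member of the list, measured 607, 538, 311 and 344 CPM in TBI 1 to 4, against 553, 264 and 267 CPM in controls 1 to 3. It is also made by osteoclasts. The 10 adhesion and integrin-control genes of the list had a median log2 fold change of 0.23, and all 10 estimates were higher.

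The 4 chains of the glycoprotein Ib-IX-V complex, the receptor for von Willebrand factor, had TBI 1, TBI 2 and control 1 as their 3 highest libraries. Gp1ba, the chain that binds the factor, measured 115, 106, 57.7 and 68.3 CPM in TBI 1 to 4, against 95.5, 42.7 and 47.0 CPM in controls 1 to 3. Gp9 measured 83.3, 91.3, 52.9 and 49.3 CPM in TBI 1 to 4, against 79.3, 51.1 and 47.4 CPM in controls 1 to 3. The log2 fold changes were 0.49 ± 0.34 for Gp1ba and 0.22 ± 0.27 for Gp9 (SE), and Gp9 had TBI 4 below control 2. Gp5 measured 108, 113, 62.7 and 59.4 CPM in TBI 1 to 4, against 97.3, 49.3 and 49.0 CPM in controls 1 to 3. Gp1bb measured 77.6, 93.4, 48.4 and 50.1 CPM in TBI 1 to 4, against 74.7, 33.7 and 35.8 CPM in controls 1 to 3. The Gp1bb value is uncertain, since 91.1% of its exon bases also belong to exons of Sept5, a gene on the same strand, and the sources used here do not say how shared reads were counted.

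The collagen and podoplanin receptors followed. Gp6, the immunoreceptor for collagen, measured 64.3, 65.7, 40.1 and 41.8 CPM in TBI 1 to 4, against 66.5, 34.5 and 37.2 CPM in controls 1 to 3, so its highest library was control 1. Clec1b, which encodes the podoplanin receptor CLEC-2, measured 85.7, 92.8, 50.8 and 52.6 CPM in TBI 1 to 4, against 76.4, 41.0 and 38.9 CPM in controls 1 to 3. Their log2 fold changes were 0.20 ± 0.28 and 0.43 ± 0.31 (SE). The 3 other genes of this role are broader surface and integrin-control genes. Cd9, a tetraspanin found on many cells, had a log2 fold change of 0.10 ± 0.18, Rasgrp2, the exchange factor that switches on Rap1 before integrin activation, 0.08 ± 0.21, and Fermt3, the kindlin of blood cells that binds integrin tails, 0.25 ± 0.26. Without TBI 2 the values were −0.03 for Cd9 and −0.07 for Rasgrp2, and Rasgrp2 was at −0.02 without control 3.

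Among the receptors for soluble agonists, those of mouse platelets differed more between libraries than F2r did. In mouse, the F2rl2 product presents thrombin to the F2rl3 product, which signals, whereas F2r encodes the main thrombin receptor of human platelets and in mouse is found on other cells. F2rl2 measured 79.5, 75.8, 42.4 and 45.6 CPM in TBI 1 to 4, against 67.2, 30.3 and 33.7 CPM in controls 1 to 3 (log2 fold change 0.48 ± 0.33, SE). F2rl3 averaged 13.6 ± 4.83 CPM after TBI (SD, n = 4) and 10.5 ± 6.61 CPM in controls (SD, n = 3). F2r measured 39.2, 32.1, 26.8 and 29.6 CPM in TBI 1 to 4, against 37.0, 31.2 and 33.1 CPM in controls 1 to 3. F2r had the narrowest span of the list, 1.46 between its highest and lowest library, where F2rl3 had 2.92 and F2rl2 2.62. Its log2 fold change, −0.08 ± 0.15, was the lowest of the 32, and the other estimate below 0 was that of Gng11, a G-protein gamma subunit (−0.06 ± 0.16), which averaged 35.2 ± 6.13 CPM after TBI and 36.8 ± 4.27 CPM in controls.

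The 7 genes of agonist receptors and their G protein had a median log2 fold change of 0.31, with 5 estimates higher and 2 lower. For the nucleotide receptors, TBI 1, TBI 2 and control 1 were again the 3 highest libraries. P2ry12, the ADP receptor that antiplatelet drugs block, measured 17.6, 15.4, 12.1 and 12.6 CPM in TBI 1 to 4, against 15.1, 7.82 and 9.38 CPM in controls 1 to 3. Its log2 fold change was 0.42 ± 0.25 (SE) and it had the lowest level of the list per kilobase, 5.48 CPM. P2ry1, the ADP receptor that starts shape change, averaged 37.7 ± 6.21 CPM after TBI (SD, n = 4) and 32.8 ± 8.86 CPM in controls (SD, n = 3), and the log2 fold change of P2rx1, the ATP-gated channel, was 0.31 ± 0.27 (SE), with TBI 4 (33.4 CPM) just below control 2 (33.8 CPM). The 3 enzymes of arachidonic acid use had estimates of 0.37 ± 0.29 for Alox12, the platelet-type lipoxygenase, 0.29 ± 0.24 for Tbxas1, thromboxane synthase, and 0.25 ± 0.17 for Ptgs1, the cyclooxygenase that aspirin blocks in platelets. Alox12 was the most abundant of the 3 per kilobase, at 56.9 CPM, against 30.8 for Tbxas1 and 21.8 for Ptgs1.

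Tubb1, the beta-tubulin of the platelet's marginal band, measured 159, 153, 89.0 and 102 CPM in TBI 1 to 4, against 136, 68.6 and 71.2 CPM in controls 1 to 3. Fli1, the ETS factor named above, measured 62.6, 49.6, 31.9 and 41.8 CPM in TBI 1 to 4, against 47.1, 32.4 and 30.3 CPM in controls 1 to 3. Control 1 lay inside the TBI range for both. Their log2 fold changes were 0.45 ± 0.30 and 0.34 ± 0.24 (SE). Plek, the major protein kinase C substrate of platelets, also made by other leukocytes, averaged 394 ± 121 CPM after TBI (SD, n = 4) and 288 ± 142 CPM in controls (SD, n = 3).

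**Figure D3:**
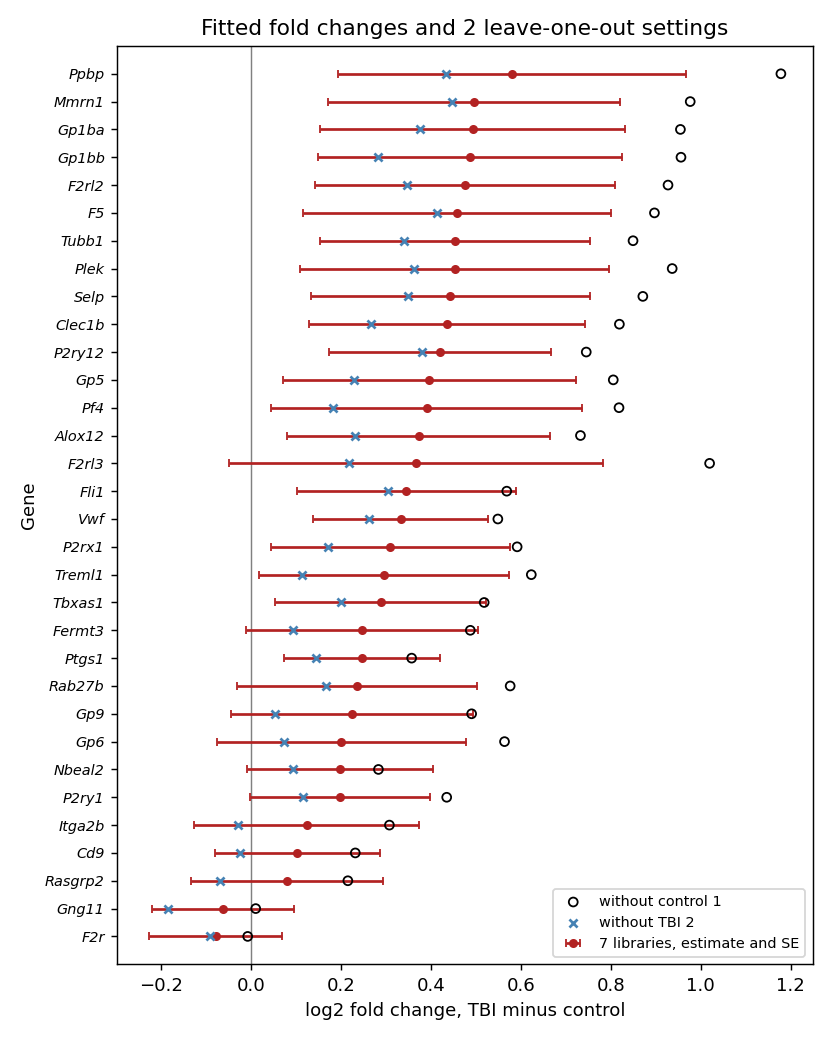
Fitted log2 fold change, TBI minus control (x axis), of the 32 genes (y axis, ordered by the estimate), with the SE as bars, and the estimate without control 1 (open circles) and without TBI 2 (crosses). Ppbp has the highest estimate (0.58) and F2r the lowest (−0.08); without control 1 the circles reach 1.18 for Ppbp.

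The genes of the list varied in common more than on their own. The median SD of a gene over the 7 libraries was 0.42 on the log2 scale, against 0.28 over all genes tested, and was 0.15 once the list's median level in each library was subtracted. These values share libraries and scaling and are given as a description. After that subtraction, Alox12, Gp6 and Rab27b had the smallest SDs (0.07, 0.08 and 0.09) and so lay closest to the list's median level, and F2r and Gng11 had the largest (0.35 each). A gene that is high in the same libraries but swings more widely, such as Ppbp (0.25), also gets a larger SD on this measure. The span between the highest and lowest library ran from 1.46 (F2r) to 2.94 (Ppbp), with a median of 2.11.

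Genes of the same pathway outside the list were mixed. The regulators of the lineage showed no common direction: of the 16 genes of this list, 8 had a higher and 8 a lower estimate, with a median log2 fold change of 0.00. Gata1, which also drives red-cell genes, measured 162, 167, 154 and 113 CPM in TBI 1 to 4, against 191, 159 and 141 CPM in controls 1 to 3, with control 1 highest. Nfe2, Runx1 and Gfi1b, which act in late platelet formation, lineage entry and the shared megakaryocyte and red-cell branch, had log2 fold changes of −0.16 ± 0.19, 0.08 ± 0.17 and −0.04 ± 0.19 (SE). In this list 2 genes had groups that did not overlap, where 2.66% of all genes did so upward and 5.38% downward. Erg, an ETS relative of Fli1 also expressed in endothelium, measured 21.3 to 22.2 CPM in the 4 TBI libraries, against 15.2, 17.7 and 18.3 CPM in controls 1 to 3 (log2 fold change 0.35 ± 0.12, unadjusted p = 0.0156, adjusted p = 0.587, edgeR). Ldb1, the scaffold that joins GATA1 to its partners, measured 179.6, 213, 202 and 153 CPM in TBI 1 to 4, against 219.5, 249 and 243 CPM in controls 1 to 3 (−0.34 ± 0.15, adjusted p = 0.670, edgeR). The third smallest p was that of Etv6, at 0.37 ± 0.20.

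The effector lists leaned upward by estimate and contained no called gene. Platelet activation signalling had 21 of 23 estimates higher (median log2 fold change 0.28), the proplatelet cytoskeleton 14 of 14 (0.25), other megakaryocyte-enriched genes 15 of 17 (0.19), and granule biogenesis and release 14 of 22 (0.11), beside 54.4% higher and a median of 0.03 over all genes. In edgeR 0 genes of the 5 pathway lists passed after adjustment, as in DESeq2 and limma-voom, and an unadjusted p under 0.05 was reached by 2, 1, 1, 2 and 0 genes in the regulator, signalling, cytoskeleton, enriched and granule lists, beside 7.34% of all genes. Signalling was led by Prkcq (0.40 ± 0.17), Itga6 (0.37 ± 0.20) and Fcer1g (0.54 ± 0.31), the last a receptor adaptor that Gp6 needs and myeloid cells share. Prkcq measured 52.6, 53.9, 72.0 and 74.6 CPM in TBI 1 to 4, against 48.6, 41.2 and 53.6 CPM in controls 1 to 3, so its highest libraries were TBI 3 and TBI 4. These were also the highest libraries of the skeletal muscle list and not of the platelet list. Diaph1, a formin that organises actin and tubulin, stood at 0.36 ± 0.14, Myl9, a myosin light chain, at 0.43 ± 0.20 and Tuba8, an alpha-tubulin, at 0.88 ± 0.41. Tuba8 measured 54.6, 75.1, 154 and 166 CPM in TBI 1 to 4, against 41.7, 56.2 and 84.6 CPM in controls 1 to 3, so its 3 highest libraries were those of the skeletal muscle list, TBI 4, TBI 3 and control 3. Tuba4a, at 0.26 ± 0.14 and singled out after its values were seen, was the only gene of the cytoskeleton list with groups that did not overlap. That is 1 gene of 14, where 2.66% of all genes had every TBI library above every control. Cavin2, a caveolar protein, stood at 0.54 ± 0.22, Angpt1, a ligand of endothelial Tek, at 0.45 ± 0.18 and Tspan33, a tetraspanin, at −0.29 ± 0.17. In the granule list, Serpine2, a thrombin inhibitor, was at −0.33 ± 0.15, Pdgfa at −0.33 ± 0.15 and Rab27a at 0.70 ± 0.40.

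Other cells of the femur also differed between libraries, and their part in the level of the 32 genes was not tested. The neutrophil list (17 of 17 genes measured) had median levels of 1.36, 0.71, −1.16 and 0.42 on the log2 scale in TBI 1 to 4, and 0.01, −0.70 and −0.68 in controls 1 to 3. Its summed CPM ran from 2925 to 15054 after TBI and from 4103 to 6218 in controls. TBI 1 and TBI 2 were thus high and controls 2 and 3 low for both lists, while TBI 3 was lowest for neutrophil genes and not for the platelet genes. Skeletal muscle genes (20 of 20 measured) had a higher estimate after TBI for all 20 (median log2 fold change 0.71) and stood at −0.99, −0.29, 0.93 and 1.33 in TBI 1 to 4, and −1.20, −0.24 and 0.46 in controls 1 to 3, and took 3.06% to 12.4% of counts after TBI and 2.55% to 7.67% in controls. TBI 1, TBI 2 and control 1, the 3 high libraries of the platelet list, were the 3 lowest for muscle. TBI 2 (−0.29) was only just below control 2 (−0.24), which was below 0 for both lists. Taking the 20 listed muscle genes out before scaling left the median of the 32 at 0.34. Other RNA that came with muscle stayed in, so this fit cannot speak to how much muscle a library held.

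Endothelial genes, which matter for Vwf, Selp and Erg, did not follow the platelet genes. The 15 endothelial genes stood at −0.25, −0.05, 0.36 and 0.09 in TBI 1 to 4, and at −0.23, 0.09 and 0.05 in controls 1 to 3, with a summed CPM of 551 to 854 after TBI and 552 to 719.7 in controls. None of the 15 was at 0, and TBI 1 and control 1, which were high for Vwf and Selp, were the lowest for this list. Monocyte and macrophage genes (14 of 14 measured, 13 past the filter and used for the level) matter for Plek, Fermt3, Ptgs1 and Tbxas1. They stood at 0.51, 0.02, −0.38 and −0.20 in TBI 1 to 4, and at 0.16, −0.07 and −0.15 in controls 1 to 3. The summed CPM of all 14 was 433 to 1006 after TBI and 479.6 to 638 in controls. Stem and progenitor genes (12 of 12 measured) stayed within −0.15 to 0.11 after TBI and −0.18 to 0.05 in controls. Red-cell genes (13 measured) stood at 0.06, −0.20, −0.09 and −0.50 in TBI 1 to 4, and at 0.49, 0.19 and −0.03 in controls 1 to 3, with a lower estimate after TBI for all 13. Basophil and mast cell genes (10 measured, 9 past the filter and used for the level) are of cells that share Itga2b and Rab27b. They stood at 1.083, 0.41, −1.15 and −0.07 in TBI 1 to 4, and at 0.24, −0.59 and −0.07 in controls 1 to 3. The summed CPM of all 10 was 25.8 to 143 after TBI and 39.2 to 67.7 in controls. T and NK lymphocyte genes (10 measured) stood at 1.02, 0.38, −0.67 and −0.41 in TBI 1 to 4, and at 0.29, −0.01 and 0.02 in controls 1 to 3, with a summed CPM of 27.8 to 65.9 after TBI and 40.6 to 43.6 in controls. TBI 1, TBI 2 and control 1 were the 3 highest libraries for both of these lists, as for the platelet list. The same 3 were highest for the monocyte and macrophage list, the stem and progenitor list and each of the pathway lists. B lymphocyte genes (10 measured) had a lower estimate for all 10, and the bone and cartilage genes a lower one for all 14. Of all genes tested, 54.4% had a higher estimate. Every TBI library lay below every control for 10 of the 14 bone and cartilage genes and 6 of the 13 red-cell genes. This held for 0 of the 10 B lymphocyte genes and for 5.38% of all genes. None of these listed genes passed after adjustment in edgeR.

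**Figure D4:**
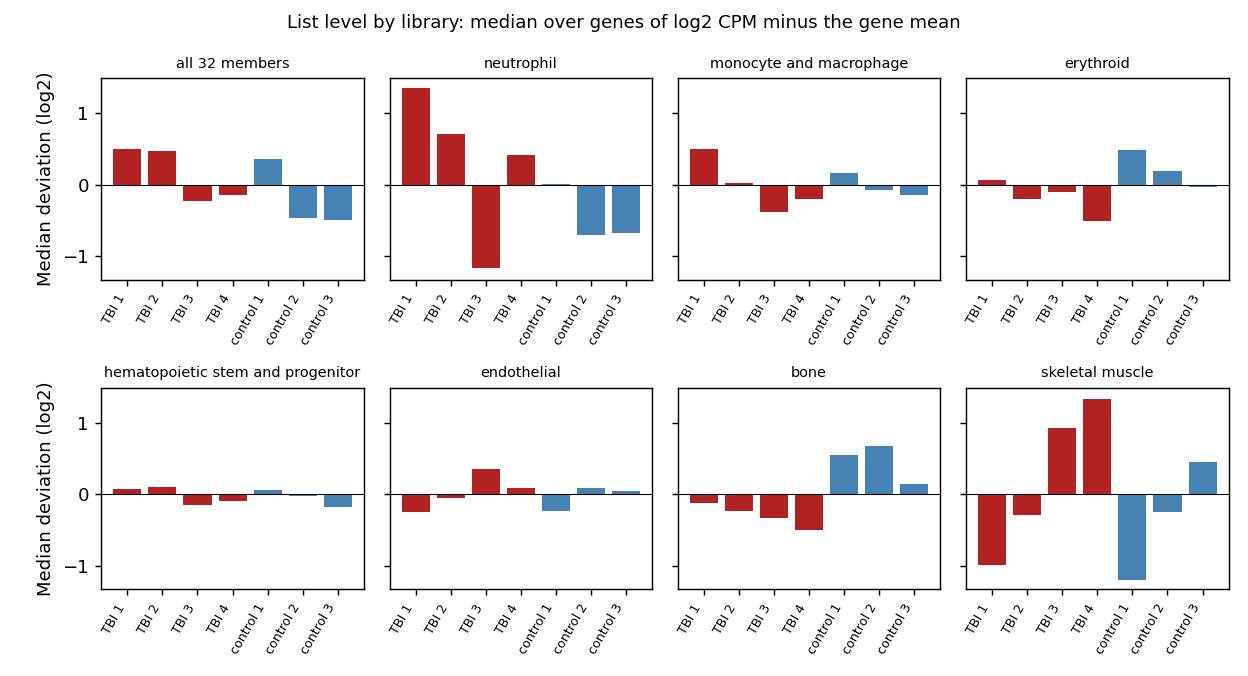
Median over the genes of a list of log2 CPM minus each gene's mean over the 7 libraries (y axis, log2), for the 32 platelet genes and 7 lists of other cells, by library, TBI in red left and control in blue right. The platelet list is above 0 in TBI 1, TBI 2 and control 1 (0.50, 0.47 and 0.36) and below 0 in the others, and skeletal muscle is below 0 in those 3 libraries and in control 2.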

How the data were processed

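RNA from crushed femurs was purified on columns and made into stranded mRNA libraries, per the labels' protocols. The authors deposited raw read counts per Ensembl gene and a second table of normalized values that the values themselves place on a log2 scale. The submitters' processing notes name STAR, DESeq and GRCm38 and no version, and the sources used here do not give the counting step or its use of strand. Symbols and coordinates came from GENCODE M21 on GRCm38, which matched 49412 of 49671 identifiers (99.5%), and promoters from RefSeq on GRCm38.p6.

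Genes were filtered with filterByExpr (17144 left), and TMM set the scaling. Groups were compared with edgeR 4.0.16 (quasi-likelihood F-test, R 4.3.3) on all 7 libraries, adjusted by Benjamini-Hochberg over all genes. Fold changes are TBI minus control, and each SE is the estimate's size over the square root of F. List levels used log2 CPM with a prior count of 2. Levels per kilobase used the longest protein-coding transcript. No 2 libraries of a group were within sampling noise of each other (chi-square per degree of freedom of 27.2 or more in each pair). The code was tested on simulated counts. Alternatives were RLE and upper-quartile scaling, no filter, 1 CPM in 3 libraries, DESeq2 1.42.0, limma-voom (limma 3.58.1), a replicate block, scaling without the muscle list, the deposited log2 table, and each library left out. No batch is named in the labels. The members and lists were chosen with earlier results of these data known. Values in every library were given for 16 chosen members, the 5 with the smallest p, and those with the highest and lowest fold change. The 3 genes with the smallest p of each pathway list were named, with 6 chosen ones, of which 1 is not reported here.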

Additional observations from a re-analysis of the deposited data

Results flagged for a closer look

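Serpine2, a thrombin inhibitor of the granule biogenesis and release list, had 1 TBI library away from the other 3. It measured 311, 303, 304 and 261 CPM in TBI 1 to 4, against 388, 414 and 308 CPM in controls 1 to 3. The gap between TBI 4 and the next library was 0.838 of the TBI range, above Dixon's critical value for 4 samples. It was the only one of 70 such sets of 4 TBI values examined, where chance gives about 1 in 20. None of the 32 platelet genes was flagged this way.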

How the results depend on the processing

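Of the 512 values of the 32 genes under 16 alternatives, 504 kept the direction of the estimate and 8 did not, in 4 genes whose estimates were near 0. Gng11 was at 0.0155 with the replicate block, 0.0203 without TBI 4 and 0.00977 without control 1. Without TBI 2, Itga2b was at −0.0304, Cd9 at −0.0258 and Rasgrp2 at −0.0700, and without control 3 Itga2b was at −0.0126 and Rasgrp2 at −0.0206. With 1 library left out at a time, Itga2b ran from −0.03 to 0.31, Cd9 from −0.03 to 0.23, Rasgrp2 from −0.07 to 0.21 and Gng11 from −0.19 to 0.02. The number of members past the threshold was 0 under each of the 15 fits. Over all genes, edgeR and limma-voom called 0 (1259 and 1146 at an unadjusted p under 0.05) and DESeq2 called 114, and the cause of that difference was not tested. The list's median log2 fold change lay between 0.30 and 0.34 under the other scalings, filters and tools, and between 0.19 and 0.61 with 1 library left out. With the replicate number as a block the median was 0.44 and 24 of the 32 had an unadjusted p under 0.05, where 11.1% of all genes did, with a smallest adjusted p of 0.190 in edgeR. The numbers are not shown to pair the libraries: same-numbered deviations correlated over 17144 genes at 0.55, −0.03 and 0.32 for numbers 1 to 3. Control 1 correlated best with TBI 1, its own number, but control 2 did so with TBI 3 and control 3 with TBI 4, and TBI 4 has no partner. With 3 against 4 libraries, an exact permutation test of a single value cannot go below 0.0571. Each of the 32 genes had 115 or more counts in each library.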
